A study of Homo sapiens with 136 samples.

Results

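The transcripts of the nuclear genes for subunits of the respiratory chain were followed in 2 pancreatic ductal adenocarcinoma cell lines, AsPC-1 and PANC-1, treated with an inhibitor of autophagy and an inhibitor of the RAF, MEK or ERK kinases. Members were chosen by name: symbols made of NDUFA, NDUFB, NDUFC, NDUFS or NDUFV and a number, SDHA to SDHD, UQCR, the COX4 to COX8 forms and ATP5, without pseudogenes, assembly factors named NDUFAF, antisense genes and read-through genes. Of the 25435 symbols in the table, 87 fitted these names and 78 reached a mean of at least 2 CPM in a line, where CPM is a gene's counts scaled to the library's total. All 78 reached it in both lines and all 78 passed the filter on low counts, so every member was tested in every comparison. They comprised 37 genes named for complex I, 4 of complex II, 8 of complex III, 11 of complex IV and 18 of complex V. The 9 symbols left out by the level included the tissue isoforms COX4I2, COX6A2, COX7A1 and COX8C, and the highest of them was UQCRHL, at a mean of 1.152 CPM in AsPC-1. NDUFS7, the member with the lowest level, stood at 11.7 CPM in AsPC-1 and 9.79 CPM in PANC-1.

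Cells grew for 24 h and were treated for 24 h. The autophagy inhibitor was hydroxychloroquine, which raises the pH of the lysosome, or Compound 19, an inhibitor of the lipid kinase Vps34, which acts when autophagosomes form (here called the Vps34 inhibitor). Each was given alone, with 6 libraries per line, or with 1 of 14 kinase inhibitors, with 2 libraries per combination and line. GDC-0879, PLX8394, RAF709, dabrafenib and sorafenib inhibit RAF. Refametinib, binimetinib, selumetinib, trametinib and cobimetinib inhibit MEK, and AZD0364, ravoxertinib, ulixertinib and SCH772984 inhibit ERK. Each drug was used at the dose that, by itself, left 80% viability at 48 h, so the doses differ between drugs. Every library carried an autophagy inhibitor. Untreated cells and kinase inhibitors without an autophagy inhibitor were not analysed here. A class effect is therefore the mean over the drugs of a class, given with either autophagy inhibitor, against the same autophagy inhibitors alone. It rests on 20 libraries with RAF inhibitors, 20 with MEK inhibitors, 16 with ERK inhibitors and 12 without a kinase inhibitor in each line. The 3 class effects of a line share those 12 libraries.

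The respiratory chain sits in the inner membrane of the mitochondrion. Complexes I and II pass electrons from NADH and succinate to ubiquinone, complex III passes them on to cytochrome c, and complex IV to oxygen. Complexes I, III and IV pump protons, and complex V, the ATP synthase, uses the gradient to make ATP. A few core subunits are made from mitochondrial DNA and all others from nuclear genes, with the factor NRF1 and ETS family factors among the known regulators of the nuclear genes. In pancreatic cancer cells, oxidative phosphorylation and autophagy are known as sources of energy and building blocks when the signalling from RAS through RAF, MEK and ERK is blocked.

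Upstream sequences are shown for 4 members whose transcripts moved in different ways in AsPC-1, and with different motifs: SDHA, which fell with MEK and ERK inhibitors, and SDHD, UQCR11 and COX5B, which rose. Each holds the 250 bases before the gene start of RefSeq on GRCh38.p14, read 5′ to 3′ on the strand of the gene, with matches to the NRF1 motif (GCGCA, any base, then GCGC) or the ETS motif CCGGAAG, on either strand, in capitals. No matched base is shared between the motifs in these sequences. SDHA, the flavoprotein of complex II, lies on chromosome 5 and its sequence is chr5:218070-218319 on the plus strand. SDHD, a membrane anchor of the same complex, has chr11:112086623-112086872 on the plus strand. UQCR11, a small subunit of complex III, has chr19:1605463-1605712 on the minus strand, and COX5B, a subunit of complex IV, has chr2:97645812-97646061 on the plus strand.
SDHA: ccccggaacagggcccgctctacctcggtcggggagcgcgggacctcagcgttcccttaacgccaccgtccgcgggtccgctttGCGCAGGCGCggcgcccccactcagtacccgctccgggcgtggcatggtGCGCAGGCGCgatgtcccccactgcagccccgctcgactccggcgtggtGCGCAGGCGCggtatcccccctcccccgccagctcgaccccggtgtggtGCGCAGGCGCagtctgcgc
SDHD: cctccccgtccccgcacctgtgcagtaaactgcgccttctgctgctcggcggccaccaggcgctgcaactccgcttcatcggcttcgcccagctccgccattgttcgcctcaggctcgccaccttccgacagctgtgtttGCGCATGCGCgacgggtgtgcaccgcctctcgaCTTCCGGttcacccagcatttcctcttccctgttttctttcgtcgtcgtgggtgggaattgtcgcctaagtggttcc
UQCR11: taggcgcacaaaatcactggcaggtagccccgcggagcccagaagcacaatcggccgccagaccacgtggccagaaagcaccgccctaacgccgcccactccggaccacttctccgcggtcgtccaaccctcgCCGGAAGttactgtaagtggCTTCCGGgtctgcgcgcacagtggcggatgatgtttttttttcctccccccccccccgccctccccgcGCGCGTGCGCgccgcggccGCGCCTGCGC
COX5B: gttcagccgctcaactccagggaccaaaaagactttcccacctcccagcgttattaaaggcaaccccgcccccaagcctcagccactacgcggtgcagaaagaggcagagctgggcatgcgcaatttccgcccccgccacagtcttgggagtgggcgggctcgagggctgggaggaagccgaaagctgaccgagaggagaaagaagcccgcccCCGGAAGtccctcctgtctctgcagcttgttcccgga

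The SDHA sequence holds 4 NRF1 matches, all of the same letters, between 166 and 19 bases before the start, and no ETS match. The SDHD sequence has 1 NRF1 and 1 ETS match, UQCR11 has 2 of each, and COX5B has 1 ETS match, 37 bases before the start. In windows from 250 bases before to 50 bases after the start, 65 of the 78 members had a RefSeq entry. The NRF1 motif was in 16 of these (24.6%), against 6.28% of all 27305 promoters, and the ETS motif in 20 (30.8%), against 10.7%. The YY1 motif AAGATGGC was in 11 (16.9%, against 3.03%), TGACGTCA, the letters bound by CREB, in 5 (7.69%, against 1.98%), and the E-box CACGTG in 7 (10.8%, against 7.43%). Each motif was sought on both strands. The NRF1 motif was in 4 of 7 promoters of complex III and 0 of 10 of complex IV, where 5 of 10 held the ETS motif. A match describes letters only.

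Libraries held 1419228 to 5871860 counts, and the median was 3351744.5 for AsPC-1 and 3636445.5 for PANC-1. All 6 epithelial marker genes reached 2 CPM in AsPC-1, and all but CDH1 in PANC-1, and none of the 5 endothelial markers did in either line. Of the 6 immune markers 1 did in each line, and of the 6 fibroblast markers 1 did in AsPC-1, against 2 for PANC-1. DUSP6, a phosphatase induced by ERK, fell in both lines, with log2 fold changes of -0.74 with RAF and -2.92 with ERK inhibitors in AsPC-1, and of -0.91, -3.47 and -3.79 with RAF, MEK and ERK inhibitors in PANC-1. Transcripts of the 13 protein genes of mitochondrial DNA made up a median of 27.6% of counts in AsPC-1 and 20.1% in PANC-1 without a kinase inhibitor.

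In AsPC-1, subunit transcripts rose with MEK and ERK inhibitors, and most broadly in complexes III and IV. With ERK inhibitors 37 of 78 members were called higher and 1 lower in edgeR's quasi-likelihood test (Benjamini-Hochberg adjusted p under 0.05 over all genes), with a median log2 fold change of 0.19. Among all 12761 genes tested, 13.7% were called higher and 17.4% lower, with a median of -0.06. With MEK inhibitors 26 members were called higher and 2 lower, with a median of 0.11, against 12.9% and 16.1% of all genes and a median of -0.05. Among genes at least as abundant as the lowest member, the shares were 18.4% and 24.7% with ERK inhibitors and 17.3% and 23.3% with MEK inhibitors. RAF inhibitors gave 5 members higher and 2 lower, with a median of 0.05, against 3.75% and 4.91% of all genes, so that the share of members higher, unlike those with MEK and ERK inhibitors, was near the background. The largest class effect on a member in either line was 0.60 on the log2 scale. Plates A and B are read from the letters PSA and PSB in the library names, which do not call them plates. Within plate A and plate B by themselves, with the drugs of a class as replicates, 20 and 17 members were higher with ERK and 13 and 5 with MEK inhibitors.

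**Figure D1:**
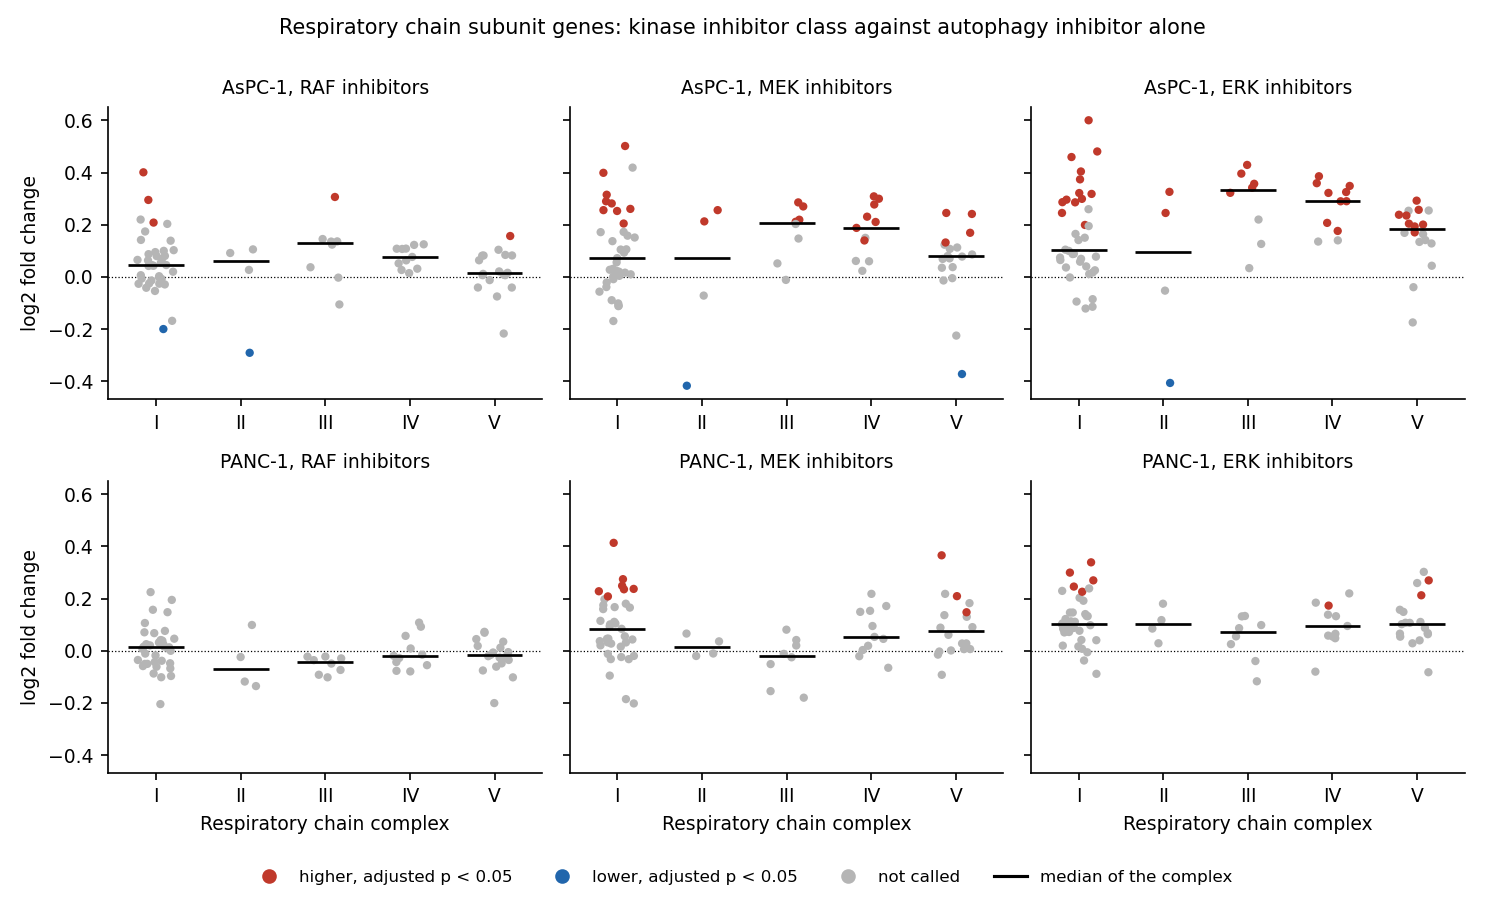
Log2 fold change (vertical axis) of each of the 78 subunit genes by complex (horizontal axis), for RAF, MEK and ERK inhibitors against autophagy inhibitor alone. Each point is a gene, red where called higher, blue where called lower and grey otherwise, and bars are medians: in AsPC-1 with ERK inhibitors the bars of complexes III and IV stand at 0.33 and 0.29.

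Complex I, the NADH dehydrogenase, had 13 of 37 genes higher with ERK inhibitors and 9 with MEK inhibitors in AsPC-1, with none lower in either. NDUFA4, named for complex I and known to sit in complex IV, had the largest rise of all members with ERK inhibitors. Its level without a kinase inhibitor was 760.3 CPM in the lowest, 1187 in the median and 1646 in the highest of 12 AsPC-1 libraries. With RAF inhibitors these values were 1123, 1554 and 2385 CPM, with MEK inhibitors 1195, 1592 and 2556, and with ERK inhibitors 1084, 1682 and 2388. The ranges overlapped, and the ERK inhibitor median stood above every library without a kinase inhibitor. The log2 fold changes were 0.40 ± 0.09 (SE, edgeR adjusted p = 0.00171), 0.50 ± 0.09 (1.55e-05) and 0.60 ± 0.09 (1.13e-06). NDUFB5, an accessory subunit of the membrane arm, ranged from 80.12 to 122.6 CPM (median 102.2) without and from 99.03 to 184.1 CPM (median 137.7) with ERK inhibitors. It rose by 0.46 ± 0.07 (edgeR adjusted p = 3.26e-07), and with RAF and MEK inhibitors by 0.30 ± 0.07 (0.00199) and 0.29 ± 0.07 (0.00056). NDUFA2, an accessory subunit of the matrix arm, rose with all classes, by 0.21 ± 0.06 with RAF (edgeR adjusted p = 0.0123), 0.26 ± 0.06 with MEK (0.000259) and 0.30 ± 0.06 with ERK inhibitors (5.43e-05).

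The genes of complex I were split into core subunits and accessory subunits, those that do not take part in electron transfer (a grouping made after the values were seen, with no test between the groups). Of the 7 nuclear genes for core subunits, 1 was called higher with MEK and with ERK inhibitors in AsPC-1. That gene was NDUFV1, which holds the site for NADH: its log2 fold changes were 0.28 ± 0.10 (edgeR adjusted p = 0.0288) and 0.40 ± 0.11 (0.00188). Of 29 accessory genes, 7 and 11 were called higher, and NDUFA4 was kept apart. NDUFB4, an accessory subunit, fell with RAF inhibitors by 0.20 ± 0.06 on the log2 scale (edgeR adjusted p = 0.0323; the call held in 8 of 14 fits without a library or a replicate of every combination), and its values with MEK and ERK inhibitors were 0.00 and 0.04.

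Complex II, succinate dehydrogenase, was split between its catalytic and membrane subunits in AsPC-1. SDHA, which oxidizes succinate, ranged from 103.2 to 141.1 CPM (median 129.9) over the 12 libraries without a kinase inhibitor. Its range was 65.14 to 152.8 CPM (median 102.4) with RAF, 54.54 to 107.5 (median 98.41) with MEK and 70.25 to 123.8 (median 91.96) with ERK inhibitors. The ranges overlapped in each class, with MEK inhibitors only at the lowest library without a kinase inhibitor, since the next of those 12 was at 116.0 CPM. SDHA fell by 0.29 ± 0.07 with RAF, 0.42 ± 0.07 with MEK and 0.41 ± 0.07 with ERK inhibitors on the log2 scale (SE; edgeR adjusted p = 0.00276, 1.66e-06 and 6.41e-06). SDHB, the iron-sulfur subunit, was not called, with values of 0.03, -0.07 and -0.05. The anchors rose: SDHC by 0.26 ± 0.07 with MEK and 0.25 ± 0.07 with ERK inhibitors (edgeR adjusted p = 0.00318 and 0.00645), and SDHD by 0.21 ± 0.08 and 0.33 ± 0.08 (0.0365 and 0.00145). The SDHD calls were lost without the plate in the fit, at adjusted p = 0.314 and 0.112, and the call with MEK inhibitors held in 6 of 14 fits without a library or a replicate of every combination. SDHA has near-identical pseudogene copies that could share reads, and the copy SDHAP1 was not called with any class (0.28 ± 0.26, 0.08 ± 0.26 and 0.29 ± 0.26).

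**Figure D2:**
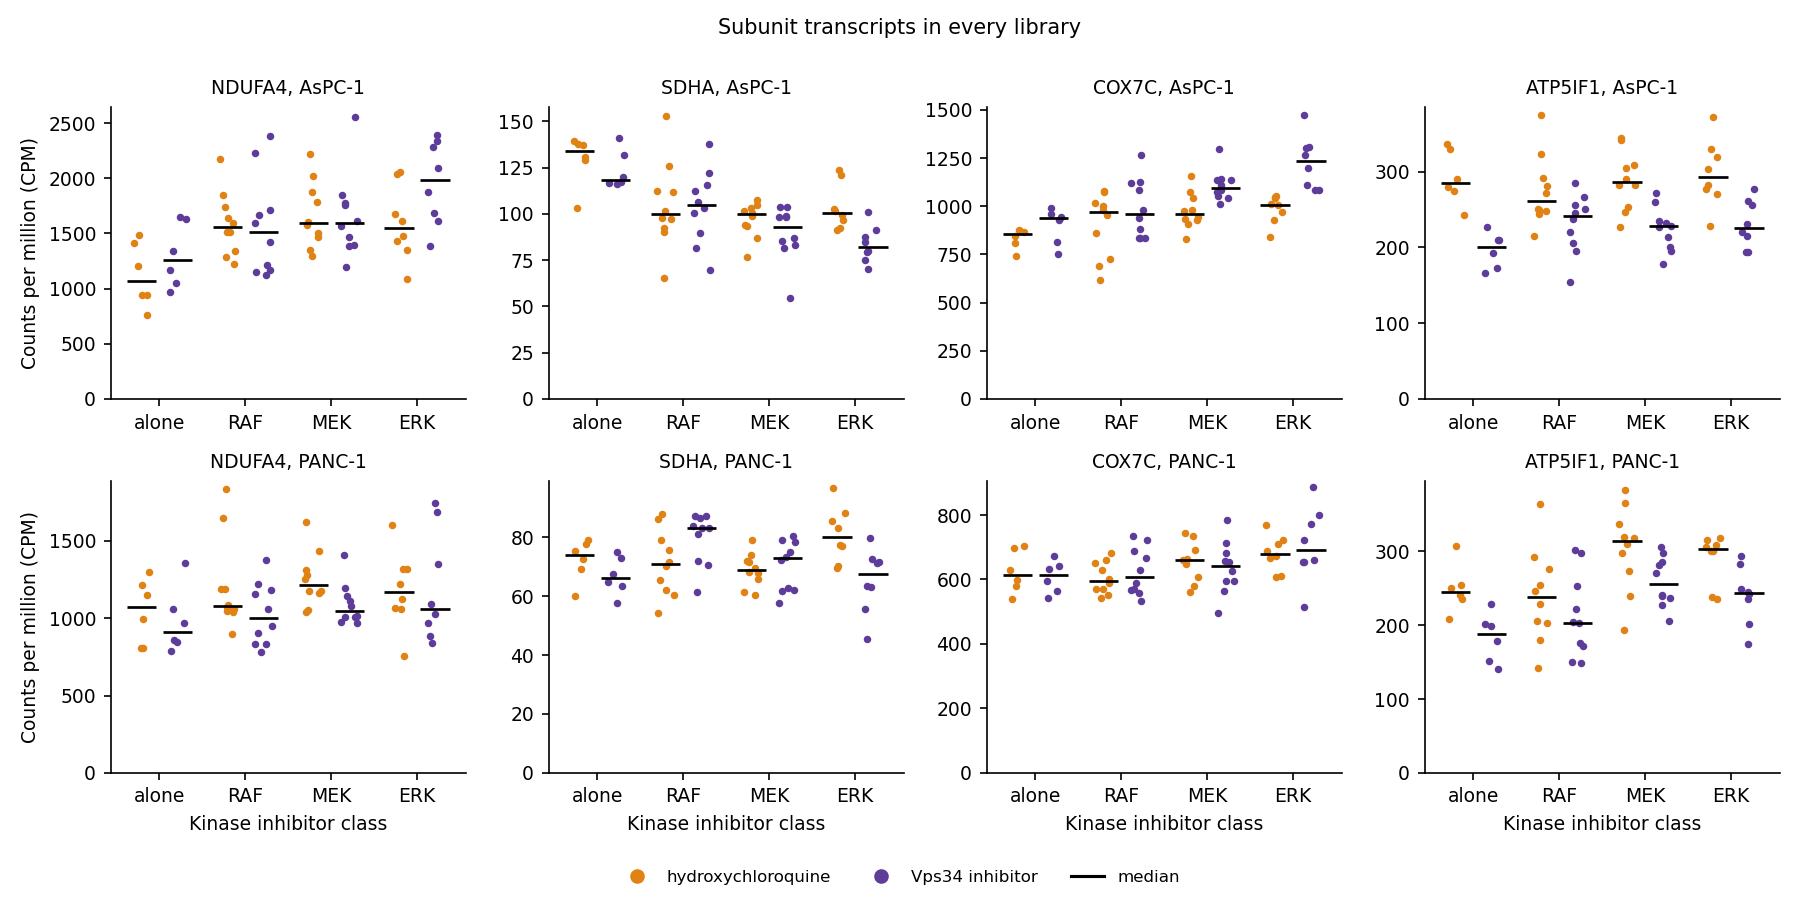
CPM (vertical axis, from 0) of NDUFA4, SDHA, COX7C and ATP5IF1 in every library, by kinase inhibitor class (horizontal axis) and autophagy inhibitor, with bars at the medians. In AsPC-1 the SDHA medians fall from 129.9 CPM without a kinase inhibitor to 98.41 with MEK and 91.96 with ERK inhibitors, and the ATP5IF1 points of the Vps34 inhibitor alone all lie under those of hydroxychloroquine alone.

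In complex III, cytochrome bc1, 5 of 8 genes rose with ERK and 4 with MEK inhibitors in AsPC-1. UQCRB, the ubiquinone-binding protein, had 332.3, 442.2 and 596.3 CPM as its lowest, median and highest value without and 376.4, 551 and 697.9 CPM with ERK inhibitors. It rose by 0.34 ± 0.05 with ERK (edgeR adjusted p = 4.99e-07) and 0.22 ± 0.05 with MEK inhibitors (0.00058). UQCRC2, a core protein, rose by 0.43 ± 0.08 with ERK (6.43e-06), 0.29 ± 0.07 with MEK (0.00163) and 0.31 ± 0.07 with RAF inhibitors (0.003). UQCR10 rose by 0.40 ± 0.07 with ERK and 0.21 ± 0.07 with MEK inhibitors, and UQCR11 by 0.36 ± 0.08 and 0.27 ± 0.08. CYC1, which carries the haem of cytochrome c1, was not called with MEK inhibitors, at 0.01 ± 0.07, nor with ERK inhibitors. UQCRH, the hinge protein, was not called with any class, with log2 fold changes of 0.03 to 0.05, and may share reads with its near-copy UQCRHL.

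Complex IV, cytochrome c oxidase, had the largest share of genes higher in AsPC-1, with 9 of 11 called with ERK and 7 with MEK inhibitors. COX7C, a small subunit, ranged from 742.8 to 992.5 CPM (median 868) without a kinase inhibitor. With MEK inhibitors it ranged from 831.5 to 1295 CPM (median 1049), and with ERK inhibitors from 840.2 to 1472 CPM (median 1068). The medians of both classes stood above every library without a kinase inhibitor, although the ranges overlapped, and COX7C rose by 0.30 ± 0.05 with MEK (edgeR adjusted p = 4.82e-06) and 0.39 ± 0.05 with ERK inhibitors (3.8e-08). COX5B rose by 0.31 ± 0.06 and 0.32 ± 0.06 (1.1e-05 and 9.41e-06), and COX6C by 0.28 ± 0.06 and 0.36 ± 0.07 (0.000353 and 1.01e-05). With RAF inhibitors 0 of 11 were called, with values from 0.01 to 0.12. Of the isoforms present, COX4I1 rose with ERK inhibitors by 0.18 ± 0.06 (edgeR adjusted p = 0.0281). COX6A1 rose by 0.14 ± 0.04 with MEK and 0.21 ± 0.04 with ERK inhibitors and COX6B1 by 0.21 ± 0.05 and 0.29 ± 0.06, whereas COX8A, at 0.06 and 0.14, was not called. COX7A2 rose by 0.19 ± 0.06 and 0.33 ± 0.06, and the related COX7A2L, which is known to join complexes into supercomplexes, rose with ERK inhibitors by 0.29 ± 0.10 (edgeR adjusted p = 0.0174).

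Complex V had 8 of 18 genes higher with ERK inhibitors and 4 higher and 1 lower with MEK inhibitors in AsPC-1. In the catalytic F1 head (5 genes, grouped after the values were seen) ATP5F1E, the epsilon subunit, rose with ERK inhibitors by 0.20 ± 0.05 (edgeR adjusted p = 0.00125), and with RAF inhibitors by 0.16 ± 0.05 (0.0285). The RAF value ran from 0.02 without replicate 2 of every combination to 0.29 without replicate 1, and its call was lost without hydroxychloroquine replicate 5 (0.13) or Vps34 inhibitor replicate 4 (0.13) or 6 (0.14). ATP5F1D, the delta subunit, went from 30.55, 40.25 and 63.61 CPM (lowest, median, highest) to 18.18, 30.45 and 43.07 CPM with MEK inhibitors, and fell by 0.37 ± 0.10 on the log2 scale (edgeR adjusted p = 0.00244). Its value with ERK inhibitors was -0.17 ± 0.10 (0.209). Of the 3 genes that encode the same subunit of the proton-carrying c ring, ATP5MC1 rose by 0.24 ± 0.08 with MEK and 0.29 ± 0.08 with ERK inhibitors (0.0157 and 0.00412). ATP5MC2 rose by 0.25 ± 0.08 with MEK inhibitors (0.0137) and was at 0.16 ± 0.08 with ERK inhibitors, and ATP5MC3, at 0.07 and 0.14, was not called. In the stalk that holds the head, 3 of 4 genes rose with ERK inhibitors, such as ATP5PO by 0.26 ± 0.07 (0.00178).

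No member was called between ERK and MEK inhibitors, and RAF inhibitors gave lower levels than MEK inhibitors for some. The direct comparison of ERK with MEK inhibitors, which uses no library without a kinase inhibitor, called 0 of 78 members in AsPC-1 by edgeR and 1 by DESeq2, where edgeR called 0.744% of all genes. At an unadjusted p under 0.05, 18 members were higher with ERK inhibitors and 0 lower, against 4.65% and 5.52% of all genes. In PANC-1 it called 0 by edgeR (2.26% of all genes) and 0 by DESeq2, with 2 and 0 at an unadjusted p under 0.05 (6.60% and 7.34% of all genes). In AsPC-1, 12 members were lower and 1 higher with RAF than with MEK inhibitors (7.91% and 7.48% of all genes), and 6 of the 12 were in complex IV, led by COX5B (-0.20 ± 0.05, edgeR adjusted p = 0.00156) and COX7C (-0.18 ± 0.04, 0.00282). The member that was higher was ATP5F1D (0.30 ± 0.09, 0.0117). In PANC-1, 10 were lower and 0 higher (6.75% and 7.02% of all genes), led by ATP5IF1 (-0.33 ± 0.07, 0.000324) and ATP5PO (-0.22 ± 0.05, 0.00195). Without PLX8394 among the RAF inhibitors the counts were 5 in AsPC-1 and 4 in PANC-1.

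In PANC-1 fewer subunit transcripts moved, and none was called lower with any class. With MEK inhibitors 10 members were called higher, with a median log2 fold change of 0.05, where 7.9% of all genes were higher and 10.6% lower. With ERK inhibitors 8 were higher, with a median of 0.10, against 5.45% and 8.68%. These shares of members lie close to those of all genes that are at least as abundant as the lowest member, 10.1% and 7.64%. RAF inhibitors gave 0 calls by edgeR and 1 by DESeq2, with 2 higher and 2 lower at an unadjusted p under 0.05 (4.19% and 7.80% of all genes), where edgeR called 0.103% of all genes higher and 0.436% lower. Complex I held 7 of the 10 and 5 of the 8, and complexes II and III none. Within plate A and plate B by themselves 2 and 1 members were higher with MEK and 0 and 0 with ERK inhibitors. Replicate 1 of every combination lay on plate A, so a fit without it takes the kinase inhibitor libraries of plate B only. Without replicate 1 of every combination the PANC-1 counts were 1 and 0.

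NDUFB10, an accessory subunit of the membrane arm, led in PANC-1. It had 120.5, 172.2 and 213 CPM as lowest, median and highest value without a kinase inhibitor and 185.5, 222.4 and 276.4 CPM with MEK inhibitors, whose median thus exceeded all 12 libraries without one. It rose by 0.41 ± 0.06 with MEK (edgeR adjusted p = 1.25e-06) and 0.34 ± 0.07 with ERK inhibitors (0.00012), and in AsPC-1 its values were 0.10 and 0.10, not called. NDUFA8 rose by 0.25 ± 0.06 and 0.30 ± 0.07 (edgeR adjusted p = 0.00344 and 0.000904), and NDUFA7 by 0.24 ± 0.06 and 0.25 ± 0.06 (0.00127 and 0.00164). ATP5IF1, the inhibitor of the ATP synthase that acts when the proton gradient collapses, rose by 0.37 ± 0.08 with MEK (0.00052) and 0.27 ± 0.08 with ERK inhibitors (0.02), and was at 0.12 and 0.17 in AsPC-1. NDUFA2 was the single member called higher with both MEK and ERK inhibitors in both lines, at 0.24 ± 0.07 (0.00738) and 0.23 ± 0.07 (0.0189) in PANC-1. The levels of NDUFA2 there were 102.8, 130.4 and 155.7 CPM without, 115.9, 157.3 and 210.5 CPM with MEK and 124.4, 159.9 and 194.8 CPM with ERK inhibitors. With MEK inhibitors NDUFB5, NDUFB7 and ATP5PO, and with ERK inhibitors NDUFA8, COX5B and ATP5MC1, also rose in both lines. In PANC-1 the ERK inhibitor calls of COX5B and ATP5MC1 held in 3 and 6 of 14 fits without a library or a replicate of every combination, with values of 0.13 to 0.21 and 0.09 to 0.33. No member was called in opposite directions in the lines.

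The difference between the lines was tested in a fit over both. With ERK inhibitors 6 members had a lower and 1 a higher fold change in PANC-1 (6.41% and 7.49% of 13960 genes), with MEK inhibitors 2 and 2 (5.29% and 6.08%) and with RAF inhibitors 1 and 1 (0.809% and 0.874%). The higher member was SDHA in each case. Its PANC-1 levels were 57.62, 70.9 and 79 CPM without, 57.68, 70.61 and 80.3 CPM with MEK and 45.32, 72.01 and 96.62 CPM with ERK inhibitors, and its fold changes of -0.02 and 0.03 differed from those in AsPC-1 by 0.40 ± 0.10 (edgeR adjusted p = 0.00207) and 0.44 ± 0.10 (0.000901). NDUFB10 had the other higher value, by 0.31 ± 0.09 with MEK inhibitors (0.015). The lower members with ERK inhibitors were NDUFB5, NDUFA4, UQCR10, UQCRB, COX7C and COX6C, with differences from -0.24 for UQCRB to -0.41 for NDUFA4. COX7C was at 538.7, 613.8 and 703.6 CPM in PANC-1 without and 513.5, 680.2 and 886.5 CPM with ERK inhibitors, a log2 fold change of 0.14 ± 0.06 (edgeR adjusted p = 0.0919) that lay 0.25 ± 0.08 below that in AsPC-1 (0.0236). The count with ERK inhibitors was 3 without the plate in the fit and 15 with DESeq2. Levels were not compared between the lines, since each line had plates of its own.

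Among single drugs in AsPC-1, each ERK inhibitor called more members higher than any MEK or RAF inhibitor did. Their comparisons share the libraries without a kinase inhibitor. Ulixertinib called 27 members higher (10.4% of all genes) and ravoxertinib 25 (7.43%), and AZD0364 and SCH772984 called 19 each (9.46% and 8.45%). Among MEK inhibitors the count ran from 16 for refametinib (9.13%) and 15 for binimetinib (8.48%) through 8 for cobimetinib (7.88%) and 7 for trametinib (7.77%) to 1 for selumetinib (3.81%). GDC-0879 called 14 (5.81%), more than any other RAF inhibitor: RAF709 called 4 (6.57%), dabrafenib 2 (1.44%), and PLX8394 and sorafenib 0 (0.36% and 0.0862%). With PLX8394 21 of 78 log2 fold changes were positive and the median was -0.10, and no other drug had a negative median in AsPC-1. In PANC-1 ulixertinib called 12 (6.72%), cobimetinib 7 (4.21%), trametinib 6 (6.07%) and RAF709 5 (4.05%). Refametinib called 3 (2.99%), and binimetinib (3.31%), AZD0364 (2.27%), ravoxertinib (1.8%) and SCH772984 (2.87%) called 2 each. Selumetinib called 1 (1.66%), and the remaining RAF inhibitors 0 each by edgeR, with 0.0634% of all genes called higher for dabrafenib, 0.293% for GDC-0879, 0.095% for PLX8394 and 0.0554% for sorafenib.

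**Figure D3:**
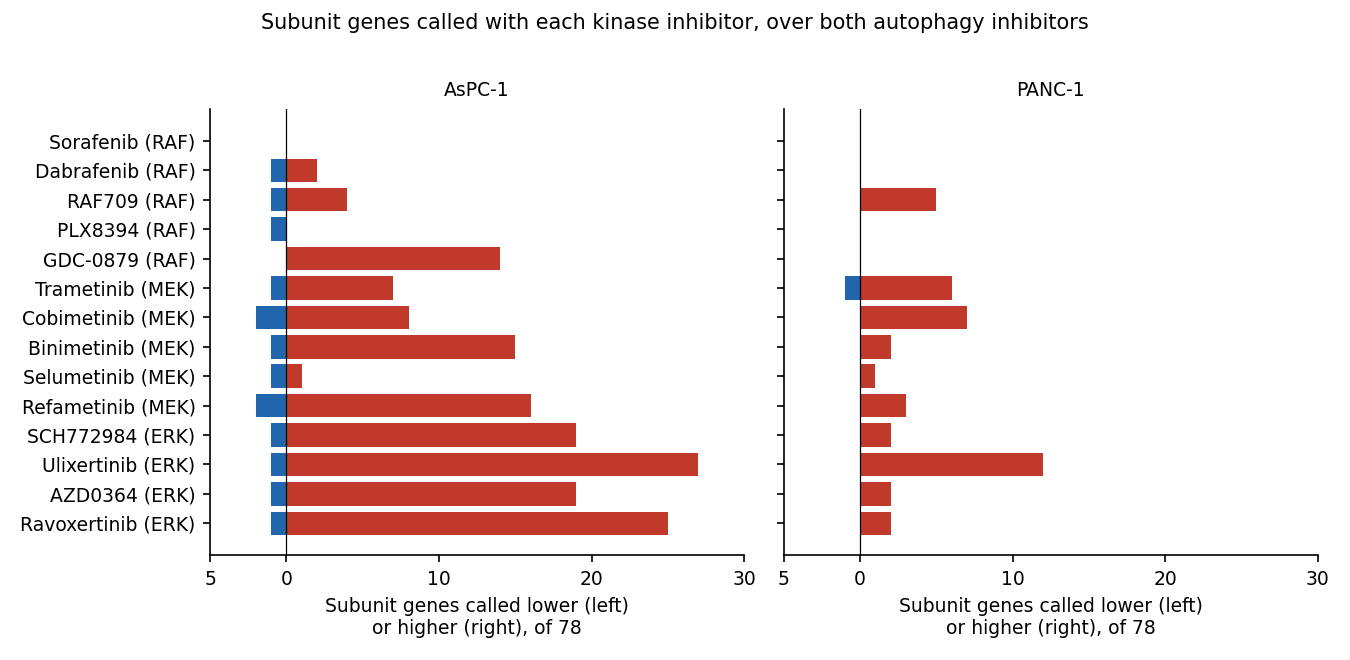
Number of the 78 subunit genes called higher (red, to the right) or lower (blue, to the left) with each kinase inhibitor against autophagy inhibitor alone, over both autophagy inhibitors, in AsPC-1 and PANC-1. The ERK inhibitors call 19 to 27 members higher in AsPC-1. The highest count of PANC-1 is 12.

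SDHA fell with 11 of 14 drugs in AsPC-1 and rose with none. Its log2 fold changes ran from -0.60 ± 0.11 with dabrafenib (edgeR adjusted p = 0.000383) and -0.55 ± 0.11 with cobimetinib (0.000216) to 0.03 ± 0.11 with sorafenib (0.986), and GDC-0879 (-0.25) and PLX8394 (-0.22) were not called. In PANC-1 SDHA was called with none of the 14, with values from -0.06 to 0.20. NDUFB10 was called higher with 9 of 14 drugs in PANC-1 and with none in AsPC-1. NDUFA4 was above 0 with all 14 drugs in AsPC-1 and called with 10, from 0.22 with PLX8394 to 0.80 with ravoxertinib, and called with none in PANC-1. COX7C was called higher with 9 drugs in AsPC-1, with PLX8394 the one drug below 0 (-0.19).

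The autophagy inhibitors also differed in AsPC-1. Without a kinase inhibitor, the Vps34 inhibitor against hydroxychloroquine had 10 members higher and 1 lower, with a median log2 difference of 0.16, where 3.21% of all genes were higher and 2.72% lower. Complex I held 6 of the 10: NDUFB6, NDUFB2, NDUFB10, NDUFA2, NDUFA11 and NDUFA8, all accessory subunits. NDUFA2 was at 177.3, 186.8 and 206.3 CPM (lowest, median and highest of 6) with hydroxychloroquine and 209.9, 239.4 and 257.6 CPM with the Vps34 inhibitor, and NDUFB10 at 103.8, 130.2 and 156.9 CPM and 157.4, 178.3 and 191.6 CPM. Neither pair of ranges overlaps, and the differences were 0.41 ± 0.09 for NDUFA2 (edgeR adjusted p = 0.00176) and 0.51 ± 0.11 for NDUFB10 (0.00101). The ranges of NDUFA11, NDUFA8 and ATP5PO did not overlap either. How many of all genes have ranges that do not overlap was not counted, so this is a description of these members only. ATP5PO was at 156, 169 and 184.7 CPM with hydroxychloroquine and 190.3, 218.2 and 239.9 CPM with the Vps34 inhibitor, 0.43 ± 0.10 higher (0.00384), and ATP5MC2 was 0.54 ± 0.12 higher (0.00284). UQCRB (0.29 ± 0.08, 0.0177) and COX7A2 (0.28 ± 0.09, 0.0467) were the members called in complexes III and IV. The call of COX7A2 held in 4 of 14 fits without a library or a replicate of every combination and was lost, at 0.22, without Vps34 inhibitor replicate 5, its highest library. The call of UQCRB held in 9 of 14 and was lost without hydroxychloroquine replicate 1, 5 or 6 or Vps34 inhibitor replicate 1, at 0.24 to 0.26. Within plate A or plate B alone, with 3 libraries per inhibitor, edgeR called 0 members higher and 0 lower. On the log2 scale NDUFB6 was then at 0.39 on each plate, NDUFB2 at 0.52 and 0.62 and ATP5MC2 at 0.72 and 0.36.

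The ATP synthase inhibitor ATP5IF1 was lower with the Vps34 inhibitor in both lines, against the direction of the other called members in AsPC-1 only. In AsPC-1 it was at 242.7, 285.3 and 336.2 CPM with hydroxychloroquine and 165.7, 201 and 227.2 CPM with the Vps34 inhibitor, so that every library of the latter was lower. In PANC-1 the values were 208, 245.7 and 306.9 CPM and 140.2, 188.7 and 228.7 CPM, and the ranges overlapped. The differences were -0.50 ± 0.10 (edgeR adjusted p = 0.000831) and -0.46 ± 0.13 (0.0321), and they differed between the lines by 0.04 ± 0.16 (0.979). The PANC-1 call did not pass in a fit to the 12 libraries without a kinase inhibitor alone (0.089), and it held in 6 of 14 fits without a library or a replicate of every combination, with values from -0.53 to -0.39. Among the libraries with MEK or ERK inhibitors, which are other libraries, ATP5IF1 was lower by 0.24 ± 0.06 (0.0015) and 0.26 ± 0.07 (0.00915) on the log2 scale.

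With MEK or ERK inhibitors present, the Vps34 inhibitor had 43 members higher and 2 lower in AsPC-1, with a median of 0.19, where 10.6% of all genes were higher and 12.8% lower (15.4% and 18.6% of genes at least as abundant as the lowest member). All 10 members higher and the 1 lower without a kinase inhibitor were called in the same direction. Complex V had 14 of 18 higher, complex I 18 of 37, complex III 5 of 8, complex IV 4 of 11 and complex II 2 of 4. In complex I the 7 core genes held none of the 18. ATP5MC2 was higher by 0.65 ± 0.07 (edgeR adjusted p = 1.63e-10), NDUFB2 by 0.57 ± 0.07 (5.27e-10) and ATP5PO by 0.51 ± 0.06 (3.26e-10). The other member lower, beside ATP5IF1, was NDUFS6 (-0.20 ± 0.06, 0.00689). Transcripts of mitochondrial DNA took more of the counts with the Vps34 inhibitor in AsPC-1, with medians of 28.6% against 25.2% without a kinase inhibitor and ranges that did not overlap, and 21 of 82 cytosolic ribosomal protein genes were higher and 0 lower. The part of either in the result was not tested. Of all genes, 3.21% were higher and 2.72% lower without a kinase inhibitor, and the shares with MEK or ERK inhibitors are given above.

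**Figure D4:**
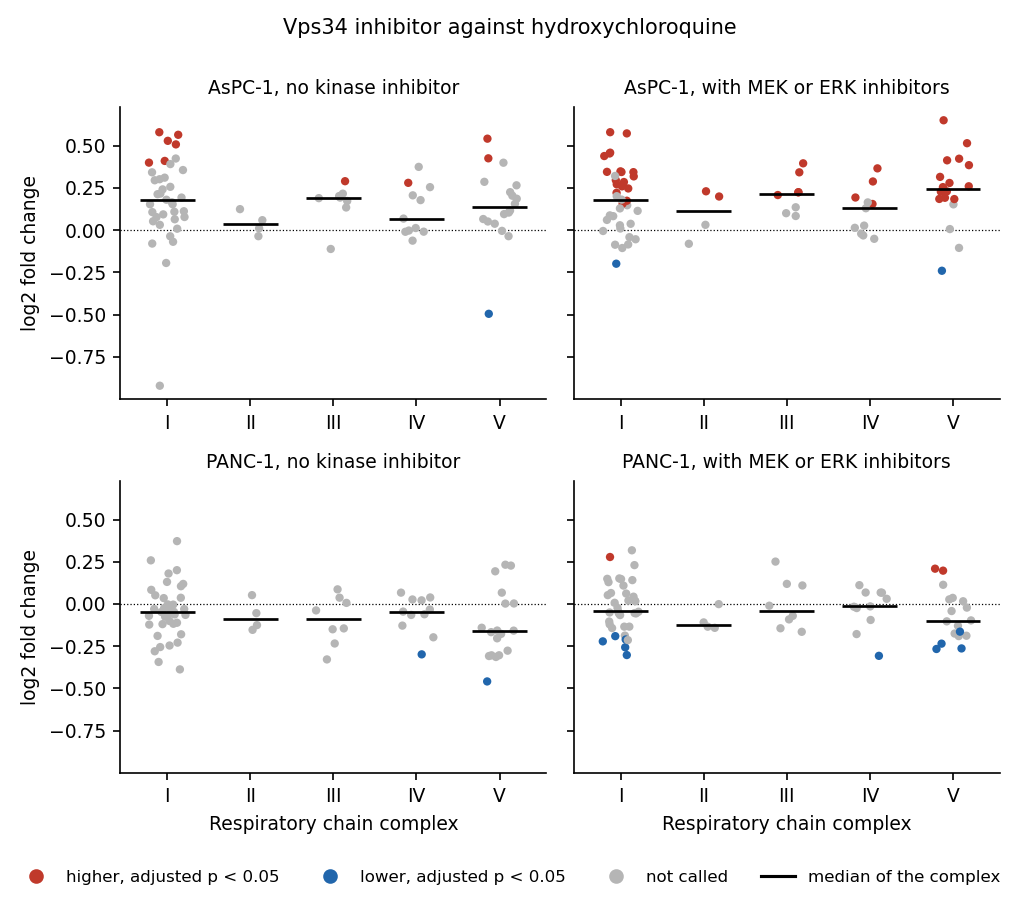
Log2 difference between the Vps34 inhibitor and hydroxychloroquine (vertical axis) for each subunit gene by complex (horizontal axis), without a kinase inhibitor and with MEK or ERK inhibitors. Points are coloured by the call and bars are medians: over all members the medians were 0.16 and 0.19 in AsPC-1 and -0.06 and -0.04 in PANC-1.

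In PANC-1 the Vps34 inhibitor went with fewer calls, more of them lower than higher, at shares near those of all genes. Without a kinase inhibitor 0 members were higher and 2 lower by edgeR (1.31% and 1.18% of all genes), and 1 was higher at an unadjusted p under 0.05 (7.11% of all genes). Those lower were ATP5IF1 and COX5A, a subunit of complex IV, at -0.30 ± 0.08 (edgeR adjusted p = 0.0266). DESeq2 called 5 lower and 0 higher, and without PANC-1 hydroxychloroquine replicate 3 or 4, or Vps34 inhibitor replicate 5, edgeR called 0 lower. With MEK or ERK inhibitors 3 were higher and 10 lower (6.33% and 7.16% of all genes, and 8.14% and 9.81% of genes at least as abundant as the lowest member). The 10 lower became 0 without replicate 2 of every combination, and the 3 higher became 0 without replicate 1. NDUFA2 was among the lower, at -0.26 ± 0.06 (0.00201), and ATP5MC3 (-0.23 ± 0.06, 0.0076), while NDUFS8 (0.28 ± 0.07, 0.00231) and ATP5MC2 (0.20 ± 0.05, 0.0106) were higher. The difference between the lines, PANC-1 minus AsPC-1, was lower for 10 members and higher for 0 without a kinase inhibitor (1.35% and 1.17% of all genes), and lower for 34 and higher for 0 with MEK or ERK inhibitors (5.75% and 5.31%). NDUFB10 differed by -0.69 ± 0.15 (0.00184) without, and NDUFA2 by -0.62 ± 0.08 (5.49e-09) with MEK or ERK inhibitors.

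The class effects were also compared between the autophagy inhibitors. The test of that difference called 0 of 78 members for each class in each line by edgeR and by DESeq2, where edgeR called 0.313%, 0.094% and 0.0% of all genes for ERK, MEK and RAF inhibitors in AsPC-1 and 0.0% for each in PANC-1. At an unadjusted p under 0.05 members whose class effect was larger with the Vps34 inhibitor numbered 4, 1 and 3 for ERK, MEK and RAF inhibitors in AsPC-1 and 6, 7 and 1 in PANC-1, and members with a smaller one 0, 1 and 2 and 1, 0 and 0. Of all genes, 2.48% to 3.77% were larger and 2.97% to 5.49% smaller at that p over these comparisons. Within hydroxychloroquine, ERK inhibitors called 19 members higher in AsPC-1 (7.99% of all genes), and within the Vps34 inhibitor 27 (9.93%).

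Among other genes of the mitochondrion in AsPC-1, more genes for proteins of the mitochondrial ribosome were called lower than higher, and some genes of mitochondrial DNA rose. Of 77 mitochondrial ribosomal protein genes, 29 were lower and 2 higher with ERK inhibitors and 26 lower and 1 higher with MEK inhibitors, with medians of -0.20 and -0.21. MRPL15 fell by 0.85 ± 0.07 with MEK and 0.82 ± 0.07 with ERK inhibitors (edgeR adjusted p = 5.33e-16 and 2.35e-14). In PANC-1 2 were lower and 4 higher with ERK and 4 lower and 1 higher with MEK inhibitors. Of the 13 protein genes of mitochondrial DNA, which encode core subunits, 4 rose with ERK and 7 with MEK inhibitors in AsPC-1 and 0 fell, for instance ND1 by 0.25 ± 0.05 and 0.20 ± 0.05. In PANC-1 none rose and 3 and 2 fell. Of 82 cytosolic ribosomal protein genes, 24 were lower and 4 higher with ERK inhibitors in AsPC-1. Among all genes tested there, 13.7% were higher and 17.4% lower with ERK and 12.9% and 16.1% with MEK inhibitors. The PANC-1 shares were 5.45% and 8.68% with ERK and 7.9% and 10.6% with MEK inhibitors.

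**Figure D5:**
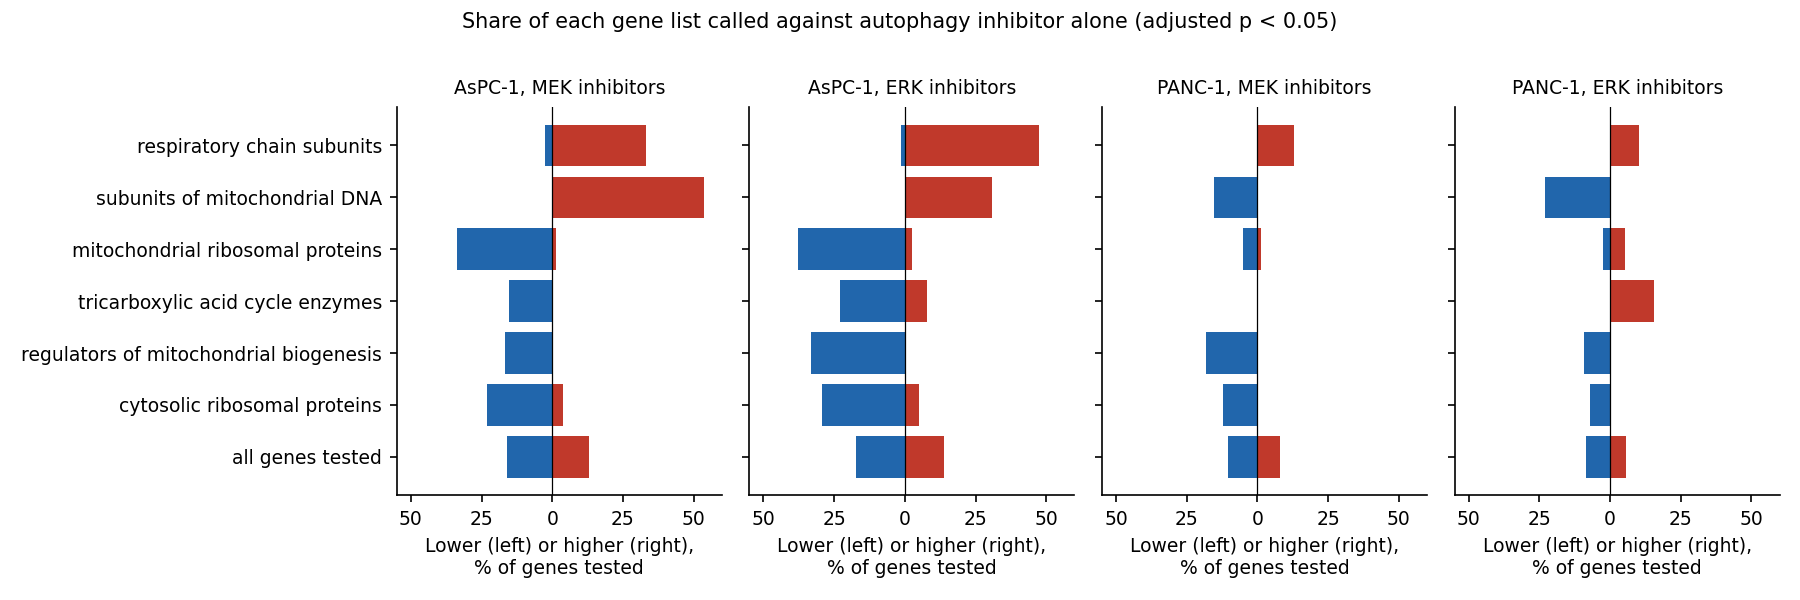
Share of each gene list (horizontal axis, percent of genes tested) called lower (blue, to the left) or higher (red, to the right) with MEK or ERK inhibitors against autophagy inhibitor alone. In AsPC-1 with ERK inhibitors 37 of 78 subunit genes are higher while 29 of 77 mitochondrial ribosomal protein genes are lower, against 13.7% and 17.4% of all genes.

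The factors that build the complexes moved in both directions. With ERK inhibitors, 13.7% of all genes were higher and 17.4% lower in AsPC-1, and 5.45% and 8.68% in PANC-1. Among genes at least as abundant as the lowest member, the AsPC-1 shares were 18.4% and 24.7%. Of 15 assembly factors of complex I, 0 were higher and 3 lower with ERK inhibitors in AsPC-1, and NDUFAF4 fell by 1.05 ± 0.08 with ERK and 0.96 ± 0.08 with MEK inhibitors (edgeR adjusted p = 1.05e-16 and 3.34e-16). NDUFAF4 also fell in PANC-1, by 0.29 ± 0.06 with MEK (0.000152) and 0.18 ± 0.06 with ERK inhibitors (0.0458). For complex III 3 of 6 were lower with ERK inhibitors in AsPC-1, such as BCS1L, which inserts the iron-sulfur protein, by 0.65 ± 0.13 (5.96e-05). For complex IV 6 of 25 were higher and 5 lower: COA3 rose by 0.51 ± 0.06 (2.88e-09) and HIGD2A by 0.48 ± 0.06 (9.41e-09). The lower counts for complexes I and IV lie near the shares of all genes. For complex V 2 of 5 rose with ERK inhibitors in each line, FMC1 by 0.41 ± 0.12 and 0.46 ± 0.13 and ATPAF2 by 0.21 ± 0.08 and 0.22 ± 0.07, and of the 4 for complex II none was called with ERK inhibitors in either line.

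Among 12 regulators of mitochondrial biogenesis, 4 were lower and 0 higher with ERK inhibitors in AsPC-1 (17.4% and 13.7% of all genes). PPRC1, a coactivator related to PGC-1alpha, fell by 1.41 ± 0.23 with ERK (edgeR adjusted p = 1.13e-06) and 0.99 ± 0.21 with MEK inhibitors (0.000101). TFAM, which packages and transcribes mitochondrial DNA, fell with ERK inhibitors by 0.29 ± 0.10 in AsPC-1 (0.0176) and 0.38 ± 0.09 in PANC-1 (0.00146). Of 13 enzymes of the tricarboxylic acid cycle, 3 fell with ERK inhibitors in AsPC-1, among them FH by 0.33 ± 0.08 (0.00142). Of 15 electron carriers and their makers, ETFDH rose by 0.53 ± 0.16 (0.00627) and 1 fell, PDSS1. With MEK inhibitors in AsPC-1, ETFDH was called higher and CYCS, the gene of cytochrome c, lower. Markers of epithelial cells moved too, with 5 of 6 higher with MEK and with ERK inhibitors in AsPC-1 (summed 2556.7 to 7722.65 CPM over all libraries), and of 3 fibroblast markers tested 1 and 2 were higher, LUM by 1.27 ± 0.10 and 1.43 ± 0.11, while all 6 fibroblast markers together summed to 43.3 to 281 CPM. In PANC-1 1 epithelial marker rose and 1 fell with MEK inhibitors, and 2 of 2 fibroblast markers tested rose. Their part in the subunit results was not tested.

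Promoters with and without the motifs shown for SDHA, SDHD, UQCR11 and COX5B were read against the fold changes. With ERK inhibitors in AsPC-1, 8 of 16 members with the NRF1 motif were higher and 1, SDHA, lower, with a median of 0.26, and of 49 without it 23 were higher and 0 lower, with a median of 0.17. With the ETS motif 11 of 20 were higher, with a median of 0.22, and without it 20 of 45, with a median of 0.20. For the Vps34 inhibitor against hydroxychloroquine without a kinase inhibitor, 0 of 20 members with and 9 of 45 without the ETS motif were higher in AsPC-1. With MEK or ERK inhibitors present, 9 of 20 with and 24 of 45 without it were higher. These are counts over members, with no test.

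The sum over all 78 members shows the size of the change within a library. In AsPC-1 it was 2.18% to 2.68% of counts (median 2.38%) without a kinase inhibitor, a median of 2.54% with RAF and with MEK inhibitors, and 2.40% to 3.07% (median 2.69%) with ERK inhibitors. In PANC-1 the medians were 2.22%, 2.27%, 2.35% and 2.47%. By complex, the median summed level with ERK inhibitors against none was 7969.6 against 6925.4 CPM for complex IV and 2883.5 against 2545.4 CPM for complex III in AsPC-1, and these ranges overlapped. For complex II it was 578.12 against 565.41 CPM, with SDHA lower and SDHC and SDHD higher. In all, 29 of the 78 members were called in no class effect and in neither comparison of the autophagy inhibitors alone, in either line. The same count was not made over all genes, so it describes these members only.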

How the data were processed

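Messenger RNA of AsPC-1 and PANC-1 cells in 96-well plates was measured by PLATE-Seq in 136 libraries, 68 per line. The deposited table holds raw counts per gene symbol, as its values show. The submitters' processing notes name kallisto 0.44.0 and GRCh38, and their role is not given in the sources used here. Nothing says whether libraries of a group came from separate cultures, so p-values measure the spread between these libraries.

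Counts were tested with edgeR 4.0.16 in R 4.3.3 (TMM scaling, the default filter on low counts by group, robust quasi-likelihood test, plate as a block), in a fit of all 30 treatments per line and a fit of both lines for differences between them, with Benjamini-Hochberg adjusted p under 0.05 over all genes tested as a call. The plate block is PSA or PSB in the library names, which do not say that it is a plate. The fits had 37 residual degrees of freedom per line and 74 over both. CPM is a gene's counts scaled to the total of its library. It is not per length, so levels are not compared between genes. Alternatives were DESeq2 1.42.0, its size factors, no filter, no plate block, drugs as replicates, each plate by itself, and leaving out drugs or libraries. Replicate 1 of every combination lay on plate A and replicate 2 on plate B. Leaving out either therefore removed the kinase inhibitor libraries of that plate and left each combination without a replicate. The spread in those fits came from the libraries without a kinase inhibitor. Promoters were searched in the RefSeq table of GRCh38.p14 with Python 3.11.15. The scripts were tested on simulated data.

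Members, gene lists and tests were chosen with earlier results of these data known. Members named with values were, per comparison, up to 3 called per complex and direction with the smallest adjusted p, those called in both lines or for a line difference, the isoform pairs, the 3 subunit c genes, ATP5IF1, SDHA to SDHD, and up to 3 called genes of each other list. NDUFV1, ATP5PO, CYC1 and others named as examples of a role were chosen after their values were seen. Over 116 pairs of replicates the lowest correlation of log2(CPM + 1) was 0.921, and no pair agreed within sampling noise (lowest chi-square per degree of freedom 7.27). Some items are not reported here.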

Additional observations from a re-analysis of the deposited data

Results flagged for a closer look

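In groups of 6 libraries given an autophagy inhibitor alone, 14 of 180 values had a library far from the others by Dixon's test, which chance gives in about 1 in 20 groups. In AsPC-1 with hydroxychloroquine they were SDHA, lowest in replicate 5 at 103.2 CPM (others 129.15 to 139.5), SDHB, highest in replicate 4 at 134.4 CPM, and the sum of complex III, highest in replicate 3 at 2814 CPM. With the Vps34 inhibitor in AsPC-1 they were NDUFB9 (replicate 3, 449.2 CPM), COX7A2 (replicate 5, 455.9 CPM), ATP5PD (replicate 2, 512.0 CPM) and the sum of complex V (replicate 5, 7814 CPM), each the highest. PANC-1 hydroxychloroquine replicate 3 was highest for the sum of complex III (2793 CPM), UQCR10 (279.1 CPM, others 155.5 to 165.6) and UQCRH (336.7 CPM) and lowest for ATP5MC1 (326.8 CPM), and replicate 5 was highest for ATP5PD (668.6 CPM). PANC-1 Vps34 inhibitor replicate 5 was highest for SDHC (283.5 CPM) and the sum of complex II (632.0 CPM).

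Fold changes that differed between the lines are given as PANC-1 minus AsPC-1 on the log2 scale, from edgeR's fit of both lines, for up to 5 members per comparison with the smallest adjusted p. That leaves out 2 of 7 members with ERK inhibitors, 5 of 10 for the autophagy inhibitors without a kinase inhibitor, and most of the 34 with MEK or ERK inhibitors. With RAF inhibitors they were 0.38 for SDHA and -0.39 for UQCRC2. With MEK inhibitors they were 0.40 for SDHA, 0.31 for NDUFB10, -0.25 for COX7C and -0.31 for UQCRC2. With ERK inhibitors they were 0.44 for SDHA, -0.37 for UQCR10, -0.24 for UQCRB, -0.31 for NDUFB5 and -0.25 for COX7C. For the Vps34 inhibitor against hydroxychloroquine without a kinase inhibitor they were -0.69 for NDUFB10, -0.52 for NDUFB6, -0.60 for ATP5PO, -0.59 for ATP5PF and -0.44 for NDUFB9. With MEK or ERK inhibitors they were -0.62 for NDUFA2, -0.44 for ATP5MF, -0.57 for ATP5PO, -0.57 for ATP5MC3 and -0.54 for ATP5PF.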

How the results depend on the processing

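Of counts of called members over all settings, 786 stayed within 1.5 times the reported count and 106 did not. Of values for named members 1320 kept their call, 263 kept their direction but not their call, and 0 reversed. The cause was not tested, except that settings within a plate or without a replicate use fewer libraries. Over 435 pairs of treatments, the plate A minus plate B differences correlated with a median of 0.0435 for AsPC-1 and 0.0698 for PANC-1, and 14.3% and 35.4% of pairs were over 0.1. Without the plate block, members called in AsPC-1 were 3 higher and 1 lower with RAF inhibitors, 8 between RAF and MEK inhibitors, and 1 lower with the Vps34 inhibitor among MEK or ERK inhibitor libraries. In PANC-1 without the block 1 was lower with the Vps34 inhibitor alone and 1 higher with MEK or ERK inhibitors, and line differences numbered 1, 2 and 3 for RAF, MEK and ERK inhibitors and 5 for the Vps34 inhibitor alone.

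Within plate A and plate B, AsPC-1 members numbered 1 and 0 higher and 0 and 0 lower with RAF, 13 and 5 higher and 1 and 1 lower with MEK, and 20 and 17 higher with ERK inhibitors, with 0 lower in plate B. For the Vps34 inhibitor in AsPC-1 they were 0 and 0 higher and 0 and 0 lower without, and 20 and 22 higher and 0 and 1 lower with MEK or ERK inhibitors, and 1 and 0 between RAF and MEK inhibitors. In PANC-1 they were 2 and 1 higher with MEK, 0 and 0 with ERK inhibitors, 0 and 0 lower with the Vps34 inhibitor alone, 0 and 1 higher and 0 and 1 lower with MEK or ERK inhibitors, and 0 and 1 between RAF and MEK inhibitors.

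With drugs as replicates 1 member was lower with RAF inhibitors in AsPC-1. PANC-1 then had 5 higher with ERK inhibitors and 1 lower with the Vps34 inhibitor alone. Without the filter 1 was lower with RAF inhibitors in AsPC-1 and 1 with the Vps34 inhibitor alone in PANC-1, and line differences were 1 for RAF and 4 for ERK inhibitors. DESeq2 called 1 higher with RAF inhibitors, 5 lower with the Vps34 inhibitor alone and 5 higher with MEK or ERK inhibitors in PANC-1, 1 between ERK and MEK inhibitors in AsPC-1, and 15 line differences with ERK inhibitors (14 with its size factors in edgeR). The 12 libraries without a kinase inhibitor by themselves gave 0 lower in PANC-1. In AsPC-1, members with RAF inhibitors were 3 higher without GDC-0879, 8 higher and 1 lower without PLX8394, and 1 lower without sorafenib, and between RAF and MEK inhibitors 8 without cobimetinib, 5 without PLX8394 and 7 without refametinib or sorafenib. In PANC-1, 1 was higher with RAF inhibitors without GDC-0879, 5 with ERK inhibitors and 5 with the Vps34 inhibitor among MEK or ERK inhibitor libraries without ulixertinib, and between RAF and MEK inhibitors 6 without GDC-0879 and 4 without PLX8394.

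Without replicate 1 and without replicate 2 of every combination, AsPC-1 members higher with MEK inhibitors numbered 11 and 16, and PANC-1 members 1 and 2 with MEK and 0 and 3 with ERK inhibitors, and between RAF and MEK inhibitors 3 and 4 (AsPC-1) or 1 and 1 (PANC-1). Over all such omissions, of 1 library without a kinase inhibitor or of 1 replicate of every combination, there were 26 to 41 higher with ERK, 11 to 27 higher and 1 to 3 lower with MEK and 1 to 6 higher and 0 to 2 lower with RAF inhibitors in AsPC-1. For the Vps34 inhibitor there were 8 to 11 higher without and 28 to 44 higher and 0 to 2 lower with MEK or ERK inhibitors. PANC-1 had 0 to 10 higher with ERK, 1 to 12 with MEK and 0 to 1 with RAF inhibitors, 0 to 3 lower with the Vps34 inhibitor alone, and 0 to 4 higher and 0 to 11 lower with MEK or ERK inhibitors. Between RAF and MEK inhibitors the line AsPC-1 had 3 to 14, and PANC-1 had 1 to 12. Depth limits the members of lowest level, such as NDUFS7.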
